A study of Homo sapiens with 4 samples.

Results

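The genes described here encode the chains of collagen, and they were chosen by name: every protein-coding row whose symbol is COL, a number, A and a number, except COL17A1, a transmembrane chain of the hemidesmosome. This rule gave 43 genes of the 43622 rows in each table. They were divided into 11 fibrillar chains, 6 basement membrane chains (those of type IV) and 26 other chains. Messenger RNA had been sequenced in 4 libraries from 2 human lung adenocarcinoma lines, A549 and H1993, each grown adherent and as spheroids, which the study treats as a culture of cancer stem cells. Its stated question was TAG synthesis in these cultures. The groups are A549 cells in adherent culture, A549 cells in spheroid culture, H1993 cells in adherent culture and H1993 cells in spheroid culture. Each is an unmodified established line as far as the labels say, and no time in culture is given. There was 1 library per group, so differences between libraries have counting intervals and no replicate check. Nothing in the labels says that the libraries came from independent cultures.

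Collagens are trimers of chains wound into a triple helix. Fibrillar collagens (types I, II, III, V, XI, XXIV and XXVII) assemble into the fibrils of stroma, where type V helps start and limit the growth of type I fibrils. Type IV collagen forms the sheet-like network of basement membranes, on which lung epithelium rests, and its 6 chains combine into a broadly found network of α1 and α2 chains and into more restricted networks that hold α3, α4 and α5 or α5 and α6 chains. The other types bind fibrils, anchor epithelium, form beaded filaments or span the plasma membrane.

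The 6 type IV genes lie in 3 head-to-head pairs, each transcribed outwards from a shared stretch of DNA, and the results below turn on how the partners of a pair move. The sequences shown are the bases before the RefSeq start of the plus-strand partner (GRCh38.p14, plus strand, 5′ to 3′), up to the RefSeq start of the other partner, and the gene bounds in the files differ from these starts. Capitals mark matches to the letters searched, always on both strands. The GC box, bound by factors of the Sp family, was searched as GGGCGG. The CCAAT box, bound by NF-Y, was searched by the letters of its name. For the TATA box the letters were TATAAA, and for a site of the TEAD factors, which act in the Hippo pathway, they were GGAATG. No match overlapped another here.
COL4A2 (with COL4A1), chr13:110307158-110307283: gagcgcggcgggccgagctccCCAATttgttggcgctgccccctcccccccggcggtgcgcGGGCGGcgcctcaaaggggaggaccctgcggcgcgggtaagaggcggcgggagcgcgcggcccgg
COL4A3 (with COL4A4), chr2:227164374-227164623: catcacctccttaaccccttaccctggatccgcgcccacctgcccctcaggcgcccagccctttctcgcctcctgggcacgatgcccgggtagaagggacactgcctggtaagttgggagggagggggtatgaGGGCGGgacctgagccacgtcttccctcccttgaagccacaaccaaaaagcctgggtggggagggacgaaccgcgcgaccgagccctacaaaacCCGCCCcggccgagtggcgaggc
COL4A5 (with COL4A6), chrX:108439588-108439837: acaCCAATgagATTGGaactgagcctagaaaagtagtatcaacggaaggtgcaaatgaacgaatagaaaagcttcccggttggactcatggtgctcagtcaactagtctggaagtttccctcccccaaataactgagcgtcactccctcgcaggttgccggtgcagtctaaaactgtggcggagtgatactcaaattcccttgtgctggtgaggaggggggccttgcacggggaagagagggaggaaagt

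The starts of COL4A1 and COL4A2 are 126 bases apart, so the first sequence is the whole stretch between them. Its G and C content is 80.2%, and it holds 1 GC box and 1 CCAAT box. Between COL4A4 and COL4A3 lie 418 bases, of which the 250 nearest COL4A3 are shown, with 66.4% G and C and 2 GC boxes. Between COL4A6 and COL4A5 lie 379 bases, and the 250 nearest COL4A5 have 51.2% G and C and 2 CCAAT boxes. Neither the TATA box nor the TEAD site was found in these letters. RefSeq windows of 300 bases around the start (250 before, 50 after) were at hand for 31 of the 43 genes. Of all 35116 windows 45.0% held the GC box, 34.6% the CCAAT box and 11.5% the TATA box, against 55.8%, 30.2% and 16.3% of the 43 collagen windows. The TEAD site was in 14% of all windows and in 3 of the collagen windows, or 6.98%. These are matches of letters in a window and say nothing of binding.

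The libraries held between 15331121 and 17681746 exonic reads, so that 3 reads, the limit a count of 0 allows, correspond to between 0.173 and 0.196 CPM on the scale of the fits. The library labelled H1993 adherent was more alike to that of adherent A549 cells than to that of H1993 spheroids. Across 15273 genes, which are not independent replicates, Pearson's r of its log2 levels was 0.947 with the former and 0.846 with the latter. With A549 spheroids r was 0.871, also above its value with H1993 spheroids. Between the adherent and spheroid libraries of A549, r was 0.899. An H1993 difference between cultures may therefore also hold a difference between lines, and these cannot be told apart. Of 10 epithelial markers, 6 or 7 reached 1 TPM (transcript abundance scaled by exon length and library) in each library, with KRT8 between 920 and 2710 TPM. Some lay far apart in the H1993 pair as labelled. EPCAM stood at 20.7 TPM in the library labelled adherent and 439 in spheroids, and KRT19 at 55.9 and 2860. KRT7 was close there, at 924 and 975 TPM. In A549 adherent and spheroid cells EPCAM stood at 35.6 and 23.6 TPM, and KRT19 at 122 and 441. The lung lineage markers were absent or low, with NKX2-1 at 0 in both A549 libraries and at most 0.963 TPM, and the surfactant genes SFTPB and SFTPC at most 0.147 TPM. Fibroblast markers, which matter for collagen, reached 1 TPM in 2 or 3 of 8 cases per library. Their summed level was 13.6 TPM in adherent and 28.0 in spheroid A549 cells, and 34.0 in the library labelled H1993 adherent against 6.36 in H1993 spheroids, mostly from LUM and ACTA2, with DPT at 0 in every library. The endothelial list summed to between 0.502 and 3.34 TPM, with KDR or CLDN5 at 0 in every library. The blood list summed to between 7.01 and 22.4 TPM, mostly CD14, with HBB at 0 throughout and PTPRC at 0 in all but H1993 spheroids (1.26 TPM). The cartilage list summed to 52.3, 113, 39.6 and 112 TPM in that order, nearly all of it SOX9 and MATN3, with ACAN at 0. The part of other cell types in the collagen values was not tested.

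As the ratio of the highest to the lowest of the 4 libraries, the summed level of the collagen chains differed less than did that of each class. The 43 genes together stood at 811 TPM in adherent and 818 in spheroid A549 cells, and 1080 in the library labelled H1993 adherent against 899 in H1993 spheroids. In these bulk libraries, fewer cells that make a chain and less of its RNA per cell cannot be told apart. Fibrillar chains gave 344, 299, 552 and 233 TPM in that order, or 42.4%, 36.5%, 50.9% and 25.9% of the collagen sum. Basement membrane chains gave 192, 254, 236 and 275 TPM, and the other chains 276, 265, 295 and 391 TPM. The fibrillar share was lower in the spheroid library than in the adherent library of both lines, and the basement membrane share was higher, at 31.0% against 23.6% in A549 and 30.6% against 21.8% in H1993 as labelled. The other chains made up 43.5% of the sum in H1993 spheroids and 27.3% to 34.0% elsewhere, and in H1993 spheroids 155 TPM of them came from beaded filament chains and 115 TPM from fibril-binding (FACIT) chains.

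**Figure D1:**
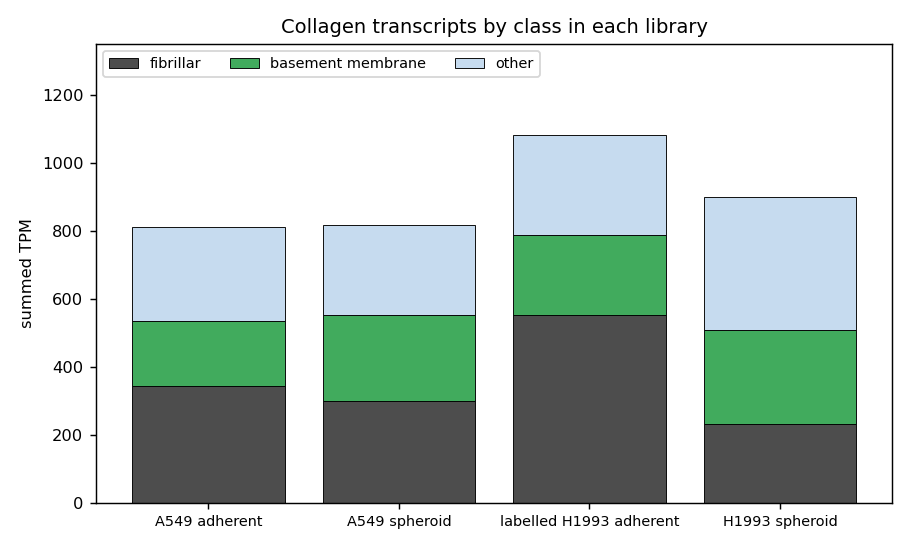
Summed TPM of the fibrillar, basement membrane and other collagen chain genes (stacked bars, vertical axis from 0) in each of the 4 libraries. The totals lie between 811 and 1080 TPM, and the fibrillar part is lowest in H1993 spheroids at 233 TPM.

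A few chains carried most of each sum. COL5A2, the α2 chain of type V, was the highest collagen gene in every library, at 280 TPM in adherent and 271 in spheroid A549 cells, and 491 in the library labelled H1993 adherent against 209 in H1993 spheroids. It made up between 81.4% and 90.6% of the fibrillar sum. In the library labelled H1993 adherent it ranked 186 among protein-coding genes. At the other end, 10 members had fewer than 10 reads in every library. These were COL1A2, COL2A1, COL6A5, COL6A6, COL9A1, COL10A1, COL15A1, COL19A1, COL23A1 and COL25A1. At least 100 reads in 1 library were reached by 25 members, and the 18 others, which include those 10, had at most 68.

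**Figure D2:**
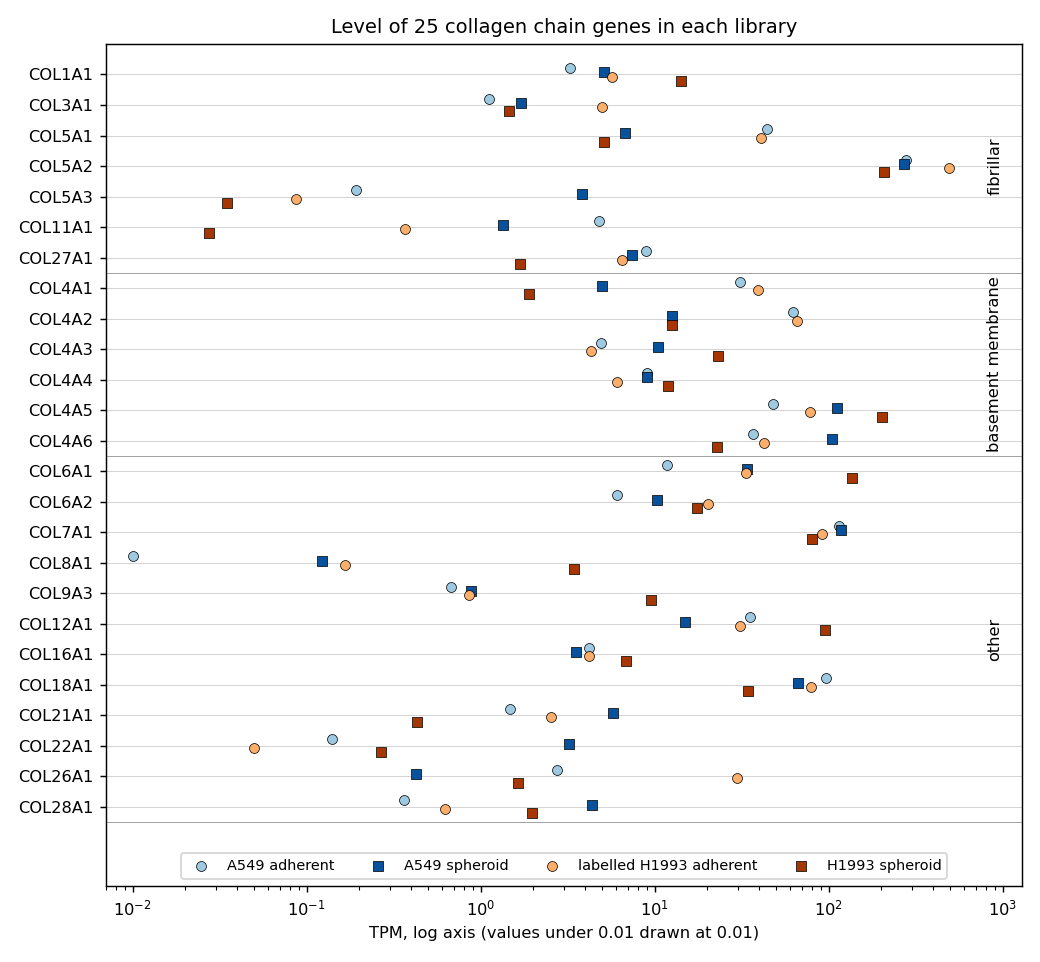
TPM (horizontal log axis, values under 0.01 drawn at 0.01) of the 25 collagen chain genes with at least 100 reads in 1 library, 1 point per library, circles for adherent and squares for spheroid cultures. COL5A2 lies furthest to the right in all 4 libraries, between 209 and 491 TPM.

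Differences between libraries were read as log2 folds of scaled exon reads, with the 95% exact (Clopper-Pearson) counting interval in brackets. These intervals leave out variation between cultures, and reads from a PCR-amplified library are not independent molecules. A gene was called higher or lower when it passed the filter on low counts, differed by at least 2-fold and had an interval that excluded no change. The filter kept 26 of the 43 members, and the 17 others count as neither, whatever their fold. In A549, 8 members were higher and 6 lower in spheroids, where 22.7% of all 15273 kept genes were called (12.4% higher, 10.3% lower). In the H1993 pair as labelled, 7 were higher and 10 lower, where 35.0% of all genes were called (17.0% higher, 18.0% lower). A median log2 fold of 0.44 was found over the 29 members with at least 10 reads in either A549 library, against 0.01 over 15734 genes measured so. For H1993 it was -0.28 over 29 members, against 0.04 over 16204 genes. The median thus says little of single chains, which were spread from -2.59 to 4.18 in A549 and from -4.42 to 3.98 in H1993.

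Between the pairs, which share no library, 4 members were called higher in both (COL4A3, COL4A5, COL6A1 and COL28A1) and 5 lower in both (COL5A1, COL11A1, COL4A1, COL4A2 and COL26A1). Of all kept genes, 4.70% were higher in both and 3.90% lower in both. With A549 adherent cells in place of the library labelled H1993 adherent, a comparison chosen after seeing the data in which line and culture both differ, 36.2% of all genes were called and H1993 spheroids had 9 members higher and 7 lower. All 7 of the members called higher and 7 of the 10 called lower were called the same way. COL3A1, COL5A2 and COL26A1 were not.

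**Figure D3:**
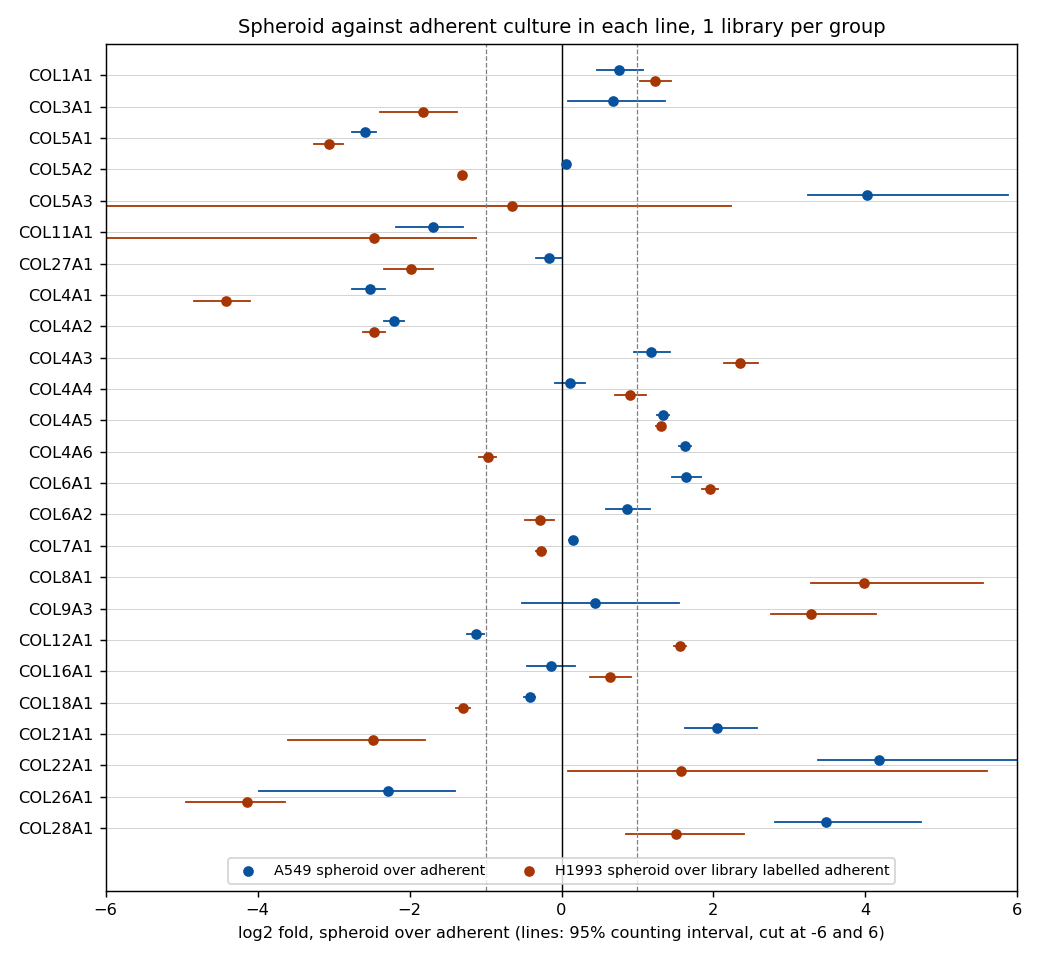
Log2 fold of spheroid over adherent library (horizontal axis) for the 25 collagen chain genes, with A549 in blue and the H1993 pair as labelled in brown; points are folds, lines 95% counting intervals, and dashes mark 2-fold. The A549 value of COL8A1 is left out, since A549 adherent cells had 0 reads. COL4A1, COL4A2 and COL5A1 lie left of the dashed line in both pairs, and COL4A3, COL4A5 and COL6A1 right of it.

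Among fibrillar chains, COL5A1 (ENSG00000130635, hg38 chromosome 9, 134641774 to 134844843), the α1 chain of type V, was lower in the spheroid library of both lines. It stood at 44.2 TPM in adherent and 6.77 in spheroid A549 cells, and 40.9 in the library labelled H1993 adherent against 5.13 in H1993 spheroids. Both adherent libraries were high and both spheroid libraries low. The log2 fold was -2.59 (-2.75 to -2.44) in A549 and -3.06 (-3.26 to -2.88) in H1993 as labelled. COL5A2 (ENSG00000204262, chromosome 2, 189031896 to 189179879), its partner in the type V trimer, was at 0.06 (0.02 to 0.11) in A549, where scaling by library size alone gave -0.05, and at -1.31 (-1.35 to -1.26) in H1993. The ratio of COL5A1 to COL5A2 in TPM was 0.158 (0.151 to 0.165) in A549 adherent cells and 0.083 (0.080 to 0.087) in the library labelled H1993 adherent. In both spheroid libraries it was 0.025, with intervals of 0.023 to 0.028 and 0.022 to 0.028. COL5A3, a further type V chain, was high in 1 library, with 133 reads in A549 spheroids against 6, 3 and 1 in A549 adherent cells, the library labelled H1993 adherent and H1993 spheroids. Its A549 fold was 4.02 (3.25 to 5.88), but it did not pass the filter on low counts.

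The type I chains were far apart in level. COL1A1, the α1 chain of the most abundant stromal collagen, had 147, 261, 286 and 592 reads in A549 adherent cells, A549 spheroids, the library labelled H1993 adherent and H1993 spheroids. COL1A2, which pairs with it in the usual type I trimer, had 2, 0, 1 and 3 reads. COL1A1 reads were spliced, with 52.4% to 59.8% of exon reads crossing an exon junction, against a median near 27.3% to 27.9% over protein-coding genes with at least 100 reads. Such shares were common among collagen chains (COL4A1 58.5% and COL7A1 79.6% in A549 adherent cells), although COL9A3 and COL8A1 in H1993 spheroids lay below the median. In TPM, COL1A1 stood at 3.25, 5.12, 5.71 and 14.1, so H1993 spheroids were the highest. Its fold was 0.76 (0.47 to 1.07) in A549 and 1.23 (1.03 to 1.44) in the H1993 pair as labelled.

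The remaining fibrillar chains were low, and several were tied to 1 library or line. COL3A1, the chain of type III collagen of soft tissues, had 35, 60, 174 and 42 reads in the same order, high in the library labelled H1993 adherent alone. It was lower in H1993 spheroids at -1.82 (-2.39 to -1.37). COL11A1, a type XI chain of cartilage and tumour stroma, had 187, 59, 16 and 1 reads. Its fold was -1.69 (-2.18 to -1.30) in A549 and -2.47 (-9.21 to -1.13) in H1993, the latter from 1 read in spheroids. COL27A1, a fibrillar chain of cartilage, stood at 8.90, 7.38, 6.46 and 1.69 TPM, with H1993 spheroids apart from the 3 others, and at -1.99 (-2.33 to -1.69) in the H1993 pair. COL11A2 had 32 to 68 reads, COL24A1 3 to 12 and COL2A1, the main cartilage chain, 0 to 2.

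Among basement membrane chains, the pair COL4A1 and COL4A2, the chains of the broadly found network, was lower in spheroids of both lines. COL4A1 (ENSG00000187498, chromosome 13, 110148963 to 110307149) stood at 31.1 TPM in adherent and 4.97 in spheroid A549 cells, and 39.5 in the library labelled H1993 adherent against 1.89 in H1993 spheroids. COL4A2 (ENSG00000134871, chromosome 13, 110305812 to 110513027) stood at 62.2, 12.5, 65.9 and 12.5 TPM. For both genes the adherent libraries were alike and several-fold above either spheroid library. The folds in A549 were -2.53 (-2.76 to -2.32) and -2.20 (-2.34 to -2.07), and in the H1993 pair as labelled -4.42 (-4.84 to -4.11) and -2.46 (-2.61 to -2.33). Neither gene differed by 2-fold between the adherent libraries, at 0.36 and 0.10. As annotated in the files, the 5′ ends of these 2 genes overlap on opposite strands, and whether reads were counted by strand is not given in the labels, but 56.7% to 59.1% of their exon reads crossed exon junctions where at least 100 reads were present.

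Among type IV chains of the restricted networks, COL4A3 and COL4A5 were higher in spheroids of both lines. COL4A5 (ENSG00000188153, chromosome X, 108439844 to 108697545), which is shared by both restricted networks, stood at 47.9 TPM in adherent and 112 in spheroid A549 cells, and 77.8 in the library labelled H1993 adherent against 202 in H1993 spheroids. Its folds were 1.34 (1.26 to 1.41) in A549 and 1.30 (1.25 to 1.36) in H1993. COL4A3 (ENSG00000169031, chromosome 2, 227164565 to 227314792) had 206, 491, 200 and 905 reads in the same order, with folds of 1.18 (0.95 to 1.43) and 2.35 (2.14 to 2.59). COL4A4, which had 409, 463, 308 and 508 reads, was under 2-fold in both pairs, at 0.12 (-0.08 to 0.31) and 0.90 (0.70 to 1.11). COL4A6 (ENSG00000197565, chromosome X, 108155607 to 108439497) was higher in A549 spheroids, at 105 TPM against 36.6 and a fold of 1.63 (1.54 to 1.71). In H1993 it stood at 22.9 TPM in spheroids and 42.7 in the library labelled adherent, a fold of -0.97 (-1.09 to -0.86) that lies just inside 2-fold.

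**Figure D4:**
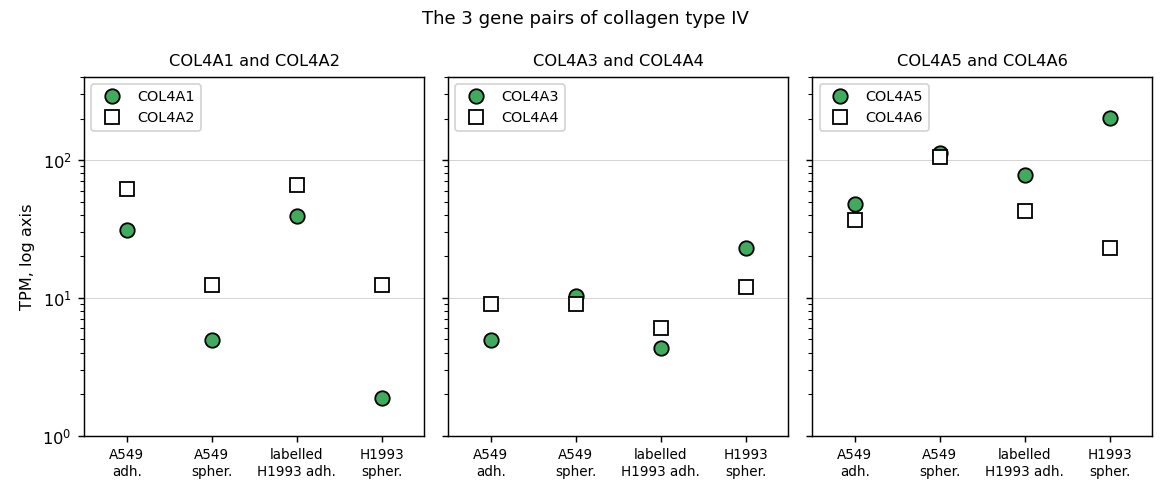
TPM (vertical log axis) of the 6 type IV genes in the 4 libraries, 1 panel per head-to-head pair, with filled circles and open squares for the partners. COL4A1 and COL4A2 are low in both spheroid libraries, whereas COL4A5 and COL4A6 lie together at 112 and 105 TPM in A549 spheroids and apart at 202 and 22.9 TPM in H1993 spheroids.

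The make-up of type IV transcripts differed between cultures. COL4A2 was the highest of the 6 genes in A549 adherent cells, with 32.4% of their summed TPM. COL4A5 was the highest in the 3 other libraries, with 44.2% in A549 spheroids, 73.6% in H1993 spheroids and 32.9% in the library labelled H1993 adherent. Partners within a pair were also not in a fixed ratio, although they start close together, on either side of the sequences printed above. The ratio of COL4A1 to COL4A2 in TPM was 0.50 (0.466 to 0.536), 0.397 (0.337 to 0.466), 0.60 (0.564 to 0.637) and 0.151 (0.115 to 0.195) in A549 adherent cells, A549 spheroids, the library labelled H1993 adherent and H1993 spheroids. The ratio of COL4A5 to COL4A6 was 1.31 (1.22 to 1.40), 1.07 (1.03 to 1.11), 1.82 (1.73 to 1.93) and 8.83 (8.24 to 9.47) in that order. For COL4A3 to COL4A4, a pair added after seeing the data, it was 0.546, 1.15, 0.704 and 1.93. In all 3 pairs the H1993 spheroid library lay furthest from the others, with a counting interval that overlapped none of theirs.

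**Figure D5:**
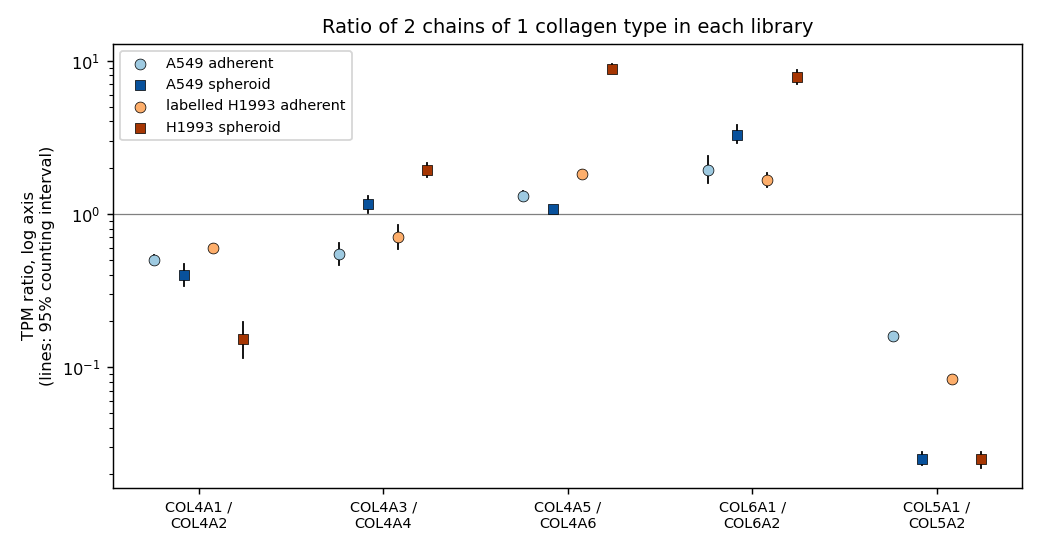
Ratio of TPM between 2 chains of 1 collagen type (vertical log axis) in each library, with 95% counting intervals as lines. H1993 spheroids stand at 8.83 for COL4A5 to COL4A6 and at 7.84 for COL6A1 to COL6A2, and both spheroid libraries at 0.025 for COL5A1 to COL5A2.

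Of the other chains, COL6A1 (ENSG00000142156, chromosome 21, 45981737 to 46005050), the α1 chain of type VI beaded filaments, was higher in spheroids of both lines. It stood at 11.8 TPM in adherent and 34.0 in spheroid A549 cells, and 33.5 in the library labelled H1993 adherent against 137 in H1993 spheroids, where it was the highest of the other chains. Its folds were 1.64 (1.45 to 1.84) and 1.95 (1.85 to 2.06). COL6A2, which is needed for the same trimer, stood at 6.09, 10.3, 20.2 and 17.4 TPM, with folds of 0.86 (0.58 to 1.17) and -0.28 (-0.47 to -0.10). The ratio of COL6A1 to COL6A2 was therefore 1.93 (1.58 to 2.37), 3.29 (2.88 to 3.77), 1.66 (1.49 to 1.85) and 7.84 (7.06 to 8.72). COL6A3, the large α3 chain, stayed under 1 TPM in every library, with 22, 62, 31 and 54 reads, and was called higher in A549 spheroids at 1.36 (0.71 to 2.20). Between 0.015 and 0.059 transcripts of COL6A3 were found per transcript of COL6A2. Of the exon reads of COL6A3, 83.4% were unique, the lowest share of any member.

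COL7A1, the anchoring fibril chain that ties epithelium to stroma, stood at 115, 118, 91.7 and 80.0 TPM in A549 adherent cells, A549 spheroids, the library labelled H1993 adherent and H1993 spheroids. It was the highest of the other chains in all but the last, and its folds of 0.15 (0.10 to 0.20) and -0.27 (-0.33 to -0.21) were well under 2-fold. COL18A1, a heparan sulfate-bearing chain of basement membranes and the source of endostatin, stood at 96.9, 67.1, 79.6 and 34.2 TPM. It was at -0.42 (-0.49 to -0.35) in A549 and was called lower in H1993 at -1.29 (-1.39 to -1.20). Its gene overlaps SLC19A1 on the opposite strand, which had 188 to 496 exon reads.

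COL12A1 and COL21A1, chains that bind along fibrils, were called in opposite directions in the 2 lines. COL12A1 (ENSG00000111799, chromosome 6, 75084326 to 75206051) stood at 35.3 TPM in adherent and 14.9 in spheroid A549 cells, and 30.8 in the library labelled H1993 adherent against 95.7 in H1993 spheroids. The adherent libraries were close to each other and the spheroid libraries lay on either side of them, at -1.13 (-1.25 to -1.02) and 1.56 (1.49 to 1.64). COL21A1 (ENSG00000124749, chromosome 6, 56056590 to 56394094) had 48, 213, 92 and 13 reads, with folds of 2.04 (1.63 to 2.57) and -2.48 (-3.60 to -1.79). COL16A1, a further fibril-binding chain, had 179, 170, 197 and 272 reads and was under 2-fold in both pairs, at -0.14 (-0.45 to 0.17) and 0.64 (0.38 to 0.92). COL22A1, found at tissue junctions, had 5, 130, 2 and 9 reads, high in A549 spheroids alone, and did not pass the filter on low counts.

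Some lower chains stood out in 1 library, which the rule for describing chains (at least 100 reads in 1 library) favours. The same holds for COL5A3 and COL22A1. COL26A1 had 40, 7, 476 and 22 reads in A549 adherent cells, A549 spheroids, the library labelled H1993 adherent and H1993 spheroids. That is 29.6 TPM in the library labelled H1993 adherent and at most 2.75 elsewhere, and 27.5% of those reads crossed an exon junction. COL28A1, a chain known from peripheral nerve, had 11, 149, 21 and 56 reads, with folds of 3.48 (2.82 to 4.73) and 1.51 (0.85 to 2.40). COL9A3, a fibril-binding chain of cartilage, had 15, 22, 21 and 197 reads and a fold of 3.29 (2.76 to 4.14) in H1993. Its gene overlaps TCFL5 on the opposite strand, which had 202, 357, 306 and 1279 exon reads, so its own level is uncertain. COL8A1, a short chain of endothelial and corneal sheets, had 0, 6, 8 and 139 reads. In H1993 spheroids 6.47% of its exon reads crossed an exon junction, the lowest share of the members with 100 reads. The reason for that share was not tested.

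Over both lines, a test that treats the lines as replicates was made with line as a term, and it rests on the library labelled H1993 adherent. With edgeR's quasi-likelihood test and Benjamini-Hochberg adjustment, 0 of the 26 members tested and 0 of 15273 genes had an adjusted p under 0.05. At an unadjusted p under 0.05 there were 9 members, 4 higher and 5 lower, and 8.24% of all genes. The smallest adjusted p-values by edgeR were 0.286 for COL5A1 at -2.83, 0.330 for COL4A2 at -2.34 and 0.331 for COL4A1 at -3.48. DESeq2 with the same terms called 5 members, where 3.87% of all genes were called. They were COL4A1, COL5A1, COL26A1 and COL4A2, lower, with adjusted p of 3.49e-05, 1.75e-04, 0.00256 and 0.00304, and COL6A1, higher, with an adjusted p of 0.0463. Without the filter on low counts, edgeR called 3 members (COL5A1, COL4A1 and COL4A2, with adjusted p of 0.0209, 0.0198 and 0.0476), where 0.684% of all genes were called.

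Between the spheroid libraries, H1993 against A549, 5 members were higher and 8 lower, where 37.1% of all genes were called (18.0% higher, 19.1% lower). Among well-covered members, COL12A1 was higher in H1993 at 2.51 (2.42 to 2.62) and COL6A1 at 1.84 (1.74 to 1.95). COL4A6 was lower at -2.36 (-2.46 to -2.26), COL27A1 at -2.27 (-2.61 to -1.98), COL4A1 at -1.53 (-1.98 to -1.15) and COL18A1 at -1.14 (-1.23 to -1.04). COL4A2 and COL4A5 were under 2-fold, at -0.16 (-0.34 to 0.02) and 0.69 (0.63 to 0.74), and COL4A3 lay just under it at 0.997 (0.84 to 1.16). Between the libraries labelled adherent, H1993 against A549, 5 members were higher and 1 lower, where 12.4% of all genes were called (6.94% higher, 5.49% lower). COL26A1 at 3.38 (2.98 to 3.95), COL3A1 at 2.12 (1.65 to 2.75), COL6A2 at 1.74 (1.49 to 2.02) and COL6A1 at 1.53 (1.34 to 1.73) were higher, as was COL13A1 from 16 and 5 reads. COL11A1 was lower at -3.51 (-4.51 to -2.94). No type IV gene was called in that comparison.

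Intronic reads, which unspliced transcripts carry, were counted apart from the exon reads used so far. Where a member had at least 100 gene reads, their share ranged from 0.57% for COL3A1 in the library labelled H1993 adherent to 55.6% for COL28A1 in H1993 spheroids, against medians of 8.47% to 11.3% over protein-coding genes. COL4A1 and COL4A2 were low, between 3.34% and 6.24%. COL4A5 was high, at 44.0% (42.4 to 45.7), 32.6% (31.5 to 33.6), 38.8% (37.5 to 40.0) and 37.1% (36.2 to 38.0) in A549 adherent cells, A549 spheroids, the library labelled H1993 adherent and H1993 spheroids. COL4A6 stood at 23.0%, 15.4%, 22.0% and 37.2% in that order, so that the library with its lowest level had the highest intronic share. COL5A2 stood at 3.29%, 2.72%, 3.76% and 8.25%, highest in H1993 spheroids, where its level was lowest. This did not hold for every member. COL12A1 (5.80%) and COL6A1 (2.96%) had their highest share in H1993 spheroids, where their levels were highest. COL18A1 had its highest share, 19.25%, in A549 adherent cells, where its level was highest. Over all genes, 8.43% to 11.6% of gene reads were intronic, highest in H1993 spheroids.

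Genes of collagen synthesis and folding were mostly called higher in A549 spheroids and mostly lower in H1993 spheroids, where they were called; this difference between lines was not tested. Of 24 such genes kept by the filter, 7 were called higher and 1 lower in the A549 pair (median of measured genes 0.70). In the H1993 pair as labelled 2 were higher and 9 lower (median -0.50). Over all kept genes, 12.4% were called higher and 10.3% lower in A549 and 17.0% and 18.0% in H1993, with medians of 0.01 and 0.04 over measured genes. P4HA1, a catalytic subunit of prolyl 4-hydroxylase, which stabilises the helix, stood at 1.95 (1.84 to 2.07) in A549 and -0.80 (-0.90 to -0.70) in H1993. In H1993 the lowest were P4HA3, a further subunit of that enzyme, at -4.08, FKBP10, a procollagen chaperone, at -2.82, P3H3, of the prolyl 3-hydroxylase family, at -2.20 and SERPINH1, the collagen chaperone HSP47, at -1.78. PLOD3, a lysyl hydroxylase, went the other way at 1.85. Of the genes of procollagen processing and crosslinking, 2 of 10 kept were higher and 1 lower in A549 (median 0.10), and 1 was higher and 2 lower in H1993 (median 0.35), which is near the 22.7% and 35.0% of all genes called in either direction. FURIN, a proprotein convertase, was at 1.43 in A549 and -0.37 in H1993, and TGM2, a transglutaminase, at -1.42 and 0.77, with the A549 values called. BMP1, the main C-proteinase of procollagens, was at -0.22 and 0.11, and LOXL2, a lysyl oxidase that acts on type IV collagen, at -0.10 and -0.94, so neither was called.

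Among receptors for collagen, the named genes called higher in spheroids of both lines were 2 integrin chains. ITGA1 and ITGA2, the α chains of the integrins that bind type IV and type I collagen, stood at 2.66 and 1.38 in A549 and at 3.18 and 3.07 in H1993. ITGB1, their common β chain, was at -0.20 in A549 and lower in H1993 at -2.04. DDR1, a collagen-activated kinase, was at 0.73 and 1.42, the latter called. ITGA10, another collagen-binding α chain, was at 5.28 in A549 and 0.91 in H1993. MRC2, an endocytic collagen receptor, was at 0.57 in A549 and lower in H1993 at -1.86. In all, 4 of 11 kept receptor and uptake genes were higher and 0 lower in A549 (median 0.73), and 4 higher and 2 lower in H1993 (median -0.33), where 12.4% and 10.3% of all genes were called in A549 and 17.0% and 18.0% in H1993.

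Of 16 kept basement membrane partners, 4 were higher and 3 lower in A549 spheroids (median 0.12), and 6 higher and 4 lower in H1993 (median 0.64), where 22.7% and 35.0% of all genes were called in either direction. SMOC1, a matricellular basement membrane protein, was at 3.02 in A549 and 2.19 in H1993. NID2, a nidogen that links laminin to type IV collagen, was at 2.16 and 4.05. LAMA4, a laminin chain, was at 1.36 and 3.68, and PXDN, the peroxidase that forms the sulfilimine crosslink of type IV collagen, at 1.87 and 2.46. LAMA5, the main laminin α chain of adult epithelium, was at 0.08 in A549 and higher in H1993 at 1.59. FBLN1, a fibulin, was lower in A549 at -2.10 and at 0.65 in H1993. The 4 lower in H1993 were NID1 at -2.94, LAMC1 at -1.02, LAMC3 at -3.54 and SPARC at -1.86. NID1, LAMC3 and SPARC had only 4, 1 and 3 reads in H1993 spheroids, against 49, 36 and 18 in the library labelled adherent. LAMC3 and SPARC were also lower in A549.

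Of 12 fibril partners kept, 6 were higher and 2 lower in A549 (median 0.74), and also 6 higher and 2 lower in H1993 (median 1.40), where 12.4% and 10.3% of all genes were called in A549 and 17.0% and 18.0% in H1993. The equal counts do not cover the same genes. LUM was higher in A549 at 3.57 and lower in H1993 at -3.03, and DCN was called higher in A549 from only 0 and 6 reads. TNC, tenascin C, was at 2.54 and 2.96 and ECM1 at 5.56 and 1.85, higher in both lines. TGFBI, a collagen-binding adhesion protein, was lower in both at -1.36 and -3.76. FBN2, a fibrillin, was lower in A549 at -3.11 and higher in H1993 at 3.36. VCAN, the proteoglycan versican, was at 0.57 in A549 and higher in H1993 at 4.45, from 0.648 TPM in the library labelled adherent, and THBS1, thrombospondin, was at -0.57 and higher in H1993 at 2.10.

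The 18 members under 100 reads add little beyond their order of level. Besides those already given, COL13A1, a transmembrane chain, had 5, 26, 16 and 6 reads in A549 adherent cells, A549 spheroids, the library labelled H1993 adherent and H1993 spheroids, and was called higher in A549 spheroids at 1.95 (0.91 to 4.05). COL8A2 had 2 to 14 reads, COL9A2 0 to 17, COL14A1 2 to 26 and COL20A1 0 to 10. At least 1 library was at 0 for 13 of the 43 members, which allows up to 3 reads there.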

How the data were processed

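The mRNA libraries came from a stranded kit with PCR amplification, per the labels' protocols, and hg38 was the build, per the submitters' processing notes. Which aligner, counter and annotation release made the tables is not given in the sources used here. Each library has 1 deposited table of whole-number read counts per gene (exon, intron and exon-junction reads, total and unique), per the file headers. TPM and RPKM are the authors' own columns per the file headers, and RPKM entered no comparison. TPM recomputed from total exon reads and exon length differed from the deposited TPM by at most 4.77e-07.

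Groups came from the sample titles. Total exon reads of all 43622 genes were filtered with edgeR 4.0.16 (filterByExpr, 15273 genes kept) and scaled by TMM; CPM refers to these scaled totals. Log2 folds used a prior count of 2. Genes with at least 10 reads in 1 of the 2 libraries were called measured. Culture over both lines was fitted with glmQLFit and glmQLFTest (line as a term, 1 residual degree of freedom), with DESeq2 1.42.0 as the other tool. The fits and the call rule were tried only on simulated counts that varied less than these data (fitted common dispersion 0.233). How they behave at that variation was not tested. Members with at least 100 reads in 1 library were described in full, and up to 6 partner genes per list with at least 500 reads were named by their largest fold in either pair. Some further partner genes outside that rule were also given. The members and lists were chosen with earlier results of these data known. Alternatives were other scalings, filters, prior counts, unique reads, TPM and no term for line.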

Additional observations from a re-analysis of the deposited data

Results flagged for a closer look

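COL12A1 and COL21A1 were each called in both lines in opposite directions between spheroid and adherent libraries. For COL12A1 the log2 fold in A549 minus that in H1993 as labelled was -2.69 (-1.13 against 1.56). For COL21A1 it was 4.52 (2.04 against -2.48). The difference between lines was not tested, since each line has 1 library per culture, and the H1993 values rest on the library labelled H1993 adherent. Against A549 adherent cells, H1993 spheroids also had COL12A1 called higher and COL21A1 called lower. That comparison was chosen after seeing the data, reuses the H1993 spheroid library and differs in both line and culture. It is therefore no separate check of a culture difference in H1993.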

How the results depend on the processing

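Without the filter on low counts, 12 members were called higher in the H1993 pair as labelled (7 with it), and 9 between the spheroid libraries (5 with it). In the A549 pair the count called higher rose from 8 to 12. The share of all genes called without the filter is not given here for these pairs of libraries. For culture over both lines, where edgeR with the filter called 0 members, DESeq2 called 5 and edgeR without the filter called 3 (COL5A1, COL4A1 and COL4A2, where 0.684% of all genes were called). TPM recomputed from unique reads was higher for every class, since the unique totals are smaller while 40 of the 43 members have only unique reads. In A549 adherent cells, A549 spheroids, the library labelled H1993 adherent and H1993 spheroids it gave 369, 320, 590 and 252 for fibrillar, 206, 272, 252 and 297 for basement membrane and 296, 284, 316 and 423 for other chains. The 40 other counts of members per comparison and direction, the A549 count of 12 among them, stayed within 1.5 times in the settings run. The 20 medians over members kept their sign. Of the log2 folds of single members under these settings, 288 stayed within their counting interval and 12 did not, all under scaling by library size alone, which moved the median of all genes by -0.11 in the A549 pair. The labels give no replicate numbers, so the lines were the only pairing, and it is the term for line in the fit of culture. Without that term edgeR called 0 members as well. By the same edgeR test, 7 members and 7.98% of all genes had an unadjusted p under 0.05, against 9 and 8.24% with the term. Depth limits the members under 100 reads most.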

Other observations

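Neighbouring collagen genes outside type IV did not always share their direction. COL3A1 and COL5A2 lie end to end on chromosome 2, 19149 bases apart, with log2 folds of 0.68 and 0.06 in A549 and of -1.82 and -1.31 in the H1993 pair as labelled. COL6A1 and COL6A2, on the same strand of chromosome 21 and 93046 bases apart, stood at 1.64 and 0.87 in A549 and at 1.95 and -0.28 in H1993. COL18A1, 468016 bases from COL6A1, was at -0.42 and -1.29.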
